A study of Mus musculus with 12 samples.

Results

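Narciclasine (ncls), an alkaloid of daffodils and related plants, was given to mice fed a high-fat diet. The RNA of their brown adipose tissue (BAT) was compared with that of BAT from vehicle-treated mice on the same diet. The animals were male C57BL/6J mice. They received a high-fat diet (HFD) from 8 wk of age and were gavaged weekly from 10 wk of age, for 7 wk, with ncls at 1 mg/kg (HFD-ncls) or with hydroxypropyl cyclodextrin, the vehicle (HFD-veh), until tissues were taken at 17 wk. BAT of vehicle-treated mice on a normal chow diet (NCD-veh) of the same age is given beside them. Each group was sequenced as 1 library, there are no replicates, and the number of mice behind a library is not given in the sources used here. All differences are therefore descriptions of these libraries, with no test, and cannot be set against the spread between animals.

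Genes were compared where their level, in fragments scaled to transcript length and to the fragments mapped in the library (FPKM), was at least 1 in either HFD library. The difference is given as the log2 ratio of HFD-ncls over HFD-veh BAT after 0.1 FPKM was added to both, so that -1 stands for a level 2-fold lower in HFD-ncls. BAT depots lie against muscle, and genes of muscle were left out before anything else was described. A gene was taken as muscle-enriched if it averaged 10 FPKM or more in muscle and this was 20 times, or more, the median over the 9 non-muscle libraries. Of 22276 gene symbols, 10331 passed the level, 147 of these were muscle-enriched, and 10184 remained.

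Brown adipocytes burn fatty acids and glucose to make heat. Uncoupling protein 1 (Ucp1) lets protons return across the inner mitochondrial membrane without making ATP, and adrenergic signals from sympathetic nerves turn the process on. The same cells also make fatty acids from glucose and store them in small lipid droplets, and in obesity the tissue can take on larger droplets and more macrophages.

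The libraries carried the markers of BAT. Ucp1 stood at 770 FPKM in NCD-veh BAT, 768 in HFD-veh BAT and 740 in HFD-ncls BAT, against 2.38 in HFD-veh WAT (white adipose tissue). Cidea, a lipid droplet protein of brown adipocytes, stood at 1509, 1121 and 1269 FPKM in the same order. Across 831 genes with FPKM values between 0.001 and 0.05 in both HFD libraries, the most common ratio of HFD-ncls to HFD-veh was 1.002, and 78.6% of the ratios lay within 0.5% of a ratio of whole numbers up to 10. The pair thus had nearly equal relative depth. Absolute depth is unknown.

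Most genes stood close together in both libraries. The median log2 ratio of the 10184 genes was -0.02, the 5th and 95th percentiles were -0.50 and 0.36, 4738 genes were higher and 5446 lower in HFD-ncls (53.5% lower). Over 2-fold, 26 genes were higher (0.255%) and 94 were lower (0.923%). At 1.4-fold, 229 were higher (2.25%) and 548 lower (5.38%). Levels were low in many of them, since 16 of the 26 and 57 of the 94 were under 5 FPKM in both libraries. Genes picked by a ratio to HFD-veh tend to have HFD-veh at an extreme of the BAT libraries. Where such genes are highest or lowest in HFD-veh BAT below, that order is no separate result. Before muscle-enriched genes were left out there were 27 higher and 176 lower genes.

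**Figure D1:**
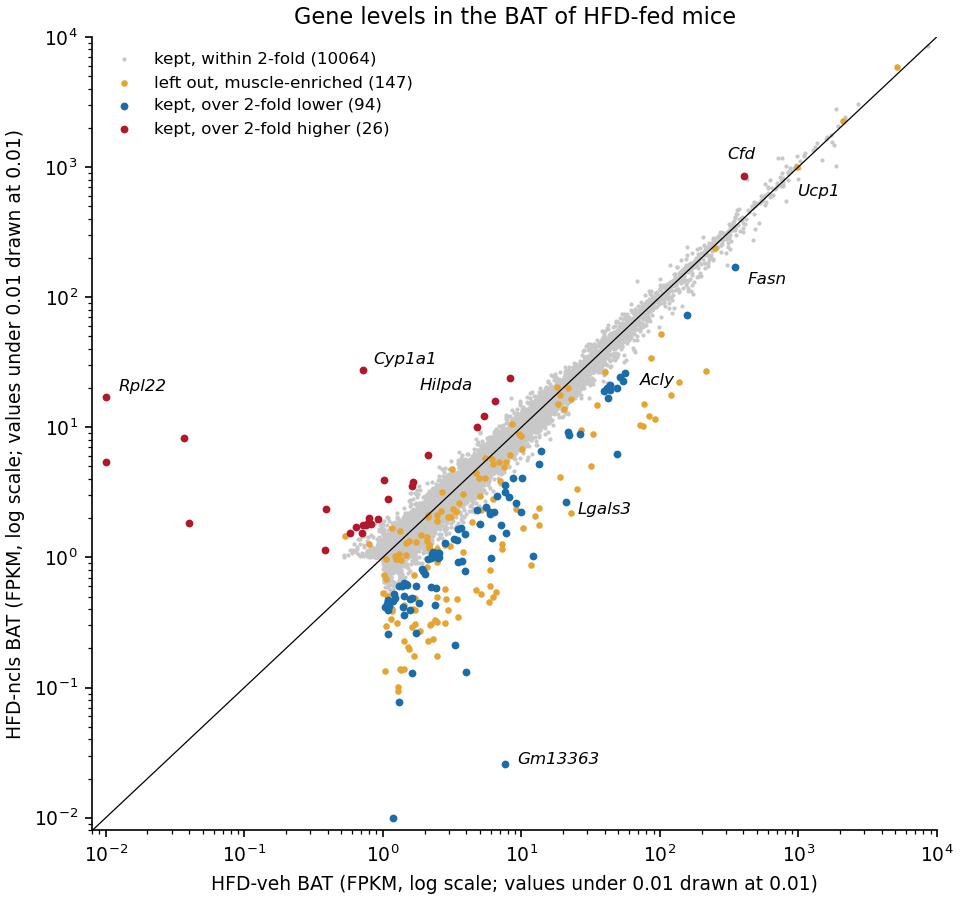
Level of each of the 10331 genes in HFD-veh BAT (horizontal) and HFD-ncls BAT (vertical), in FPKM on log axes, 1 library each. The line marks equal levels. Muscle-enriched genes lie mostly under the line, 94 kept genes lie over 2-fold below it, Fasn, Acly and Lgals3 among them, and 26 lie over 2-fold above it, Cyp1a1 and Cfd among them.

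The genes just past the 2-fold line differed little from those just short of it. On the higher side, Syt12, AY074887, 4933426D04Rik, Osr2 and Gnrh1 had log2 ratios between 1.07 and 1.01, and Peg3as, Bhlhb9, Slc51b, 8430408G22Rik and 5430416N02Rik between 0.99 and 0.96. On the lower side, Medag, Ckap4, Aldh1a1, Lcp1 and Fasn had log2 ratios between -1.01 and -1.03, and Gamt, Igfbp6, Lrrc27, 6030419C18Rik and Lctl between -0.98 and -0.996.

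The muscle rule did not catch every muscle gene and caught some genes of BAT itself. Of the 21 genes in the muscle fibre list all were compared, 16 were left out, and the other 5 were over 2-fold lower in HFD-ncls, with a median log2 ratio of -3.44. These 5 were the slow-fibre genes Tnni1, Myl2, Myl3 and Tnnc1, which quadriceps holds at low levels, and Myh4, a fast myosin with no value in the muscle libraries. Myh4 stood at 83.6 FPKM in NCD-veh BAT, 48.6 in HFD-veh BAT and 6.28 in HFD-ncls BAT. Myl2, a slow myosin light chain, stood at 8.25, 12.1 and 1.02 FPKM, and Tnnc1, slow troponin C, at 4.78, 7.70 and 1.54. Both were highest in HFD-veh and lowest in HFD-ncls BAT. Csrp3 and Myoz2, a further pair of sarcomere genes among the 94, had log2 ratios of -2.34 and -2.99. Summed over the 21 genes, the level was 2726 FPKM in NCD-veh BAT, 1120 in HFD-veh BAT and 201 in HFD-ncls BAT. The 147 muscle-enriched genes had a median log2 ratio of -1.22, and 82 of them were over 2-fold lower and 1 over 2-fold higher. In the other direction, 5 of them stood at or above the mean muscle level in HFD-ncls BAT: Cox8b, Cox7a1, Fabp3, Cpt1b and Mapt. Cox7a1, a subunit of cytochrome c oxidase, stood at 2085 FPKM in HFD-veh against 2239 in HFD-ncls BAT, and Cpt1b, which brings fatty acids into mitochondria, at 249.9 and 239. Cox7a1 and Cpt1b belong to the oxidative metabolism of BAT as well as muscle, and the rule leaves all 5 genes out of the counts.

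Genes of white fat were also lower in HFD-ncls BAT. By the same rule applied to WAT, 433 genes were WAT-enriched. Of the 290 that were compared and kept, 228 were lower and 62 higher, 38 were over 2-fold lower and 4 over 2-fold higher, and the median log2 ratio was -0.37. They were 40.4% of the 94 lower genes, and 0.566% of the 9894 other genes were over 2-fold lower. Some WAT-enriched genes, such as Adipoq and Plin1, are adipocyte genes that BAT makes too. The 180 kept genes whose NCD-veh BAT level was under 10% of the mean WAT level had a median log2 ratio of -0.52, with 156 lower and 24 higher. Relative to HFD-veh WAT, the median level of all genes under that limit was 2.83% in NCD-veh BAT, 3.87% in HFD-veh BAT and 2.60% in HFD-ncls BAT. In the white adipocyte list, 5 of 9 listed genes were compared and all 5 were lower, with a median log2 ratio of -0.76. The 5 were Lep, Nnat, Npr3, Hoxc8 and Trem2, of which Trem2, the 1 gene past 2-fold, is also a macrophage gene. Leptin (Lep), the satiety hormone of white fat, stood at 0.60 FPKM in NCD-veh BAT, 3.68 in HFD-veh BAT and 2.13 in HFD-ncls BAT, against 1199 in HFD-veh WAT. Nnat, an imprinted gene of white fat, stood at 2.65, 21.8 and 12.9 FPKM. Lep and Nnat were highest in HFD-veh BAT, while Tcf21 and Hoxc9 were listed at 0 in the 3 BAT libraries. The part of white fat or muscle RNA in the differences below was not tested, and in bulk tissue fewer cells of a type cannot be told apart from less of an RNA per cell.

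**Figure D2:**
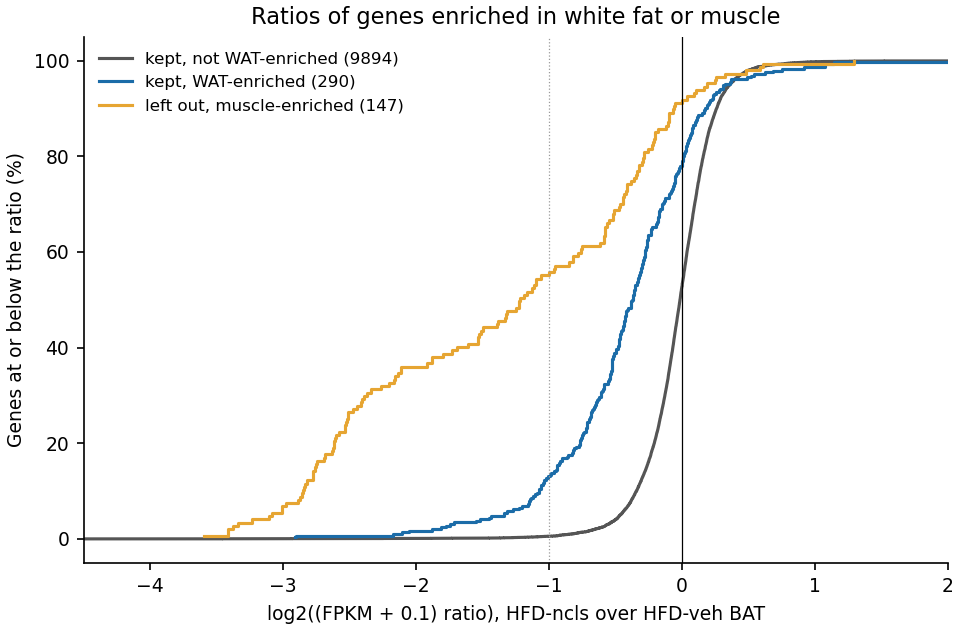
Share of genes (vertical, %) at or below each log2 ratio of HFD-ncls over HFD-veh BAT (horizontal), for the 147 muscle-enriched genes left out, the 290 WAT-enriched genes kept and the 9894 other genes kept. The curve of WAT-enriched genes, with a median of -0.37, lies to the left of the other kept genes and that of muscle-enriched genes, with a median of -1.22, farther left.

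Genes that make fatty acids were lower in HFD-ncls BAT. Of the 20 genes in the fatty acid synthesis list, 19 were lower and 1 was higher, with a median log2 ratio of -0.43 against -0.02 for all genes compared. Over 1.4-fold, 9 were lower and none higher (5.38% of all genes were lower), and 3 were over 2-fold lower (0.923% of all genes). These 3 act in sequence. Acly makes cytosolic acetyl-CoA from citrate, Acaca carboxylates it to malonyl-CoA, and Fasn builds palmitate from both. On mm9, all 3 lie on chromosome 11, Acly at 100337667 to 100389314 on the minus strand, Acaca at 83943174 to 84215153 on the plus strand and Fasn at 120667254 to 120685492 on the minus strand.

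Acly stood at 101 FPKM in NCD-veh BAT, 54.6 in HFD-veh BAT and 22.6 in HFD-ncls BAT, a log2 ratio of -1.27. Acaca stood at 68.9, 49.4 and 20.2 FPKM, a log2 ratio of -1.29. Fasn stood at 705, 348 and 171 FPKM. All 3 were highest on chow and lowest in HFD-ncls BAT. Further genes of the route were lower by less. Malic enzyme (Me1), which supplies NADPH, stood at 74.9, 41.5 and 22.0 FPKM. The mitochondrial citrate carrier Slc25a1 stood at 238, 145 and 84.7 FPKM, and transketolase (Tkt) of the pentose phosphate route at 563, 469 and 277. The desaturase Scd1 was the most abundant gene of the list, with 4265, 1855 and 1020 FPKM. Each of these 4 followed the same order of libraries. Scd3 and Scd4, outside the list, were over 2-fold lower, at 6.30 and 2.24 FPKM and at 3.25 and 1.39 FPKM, but both share sequence with Scd1 and their reads may be split between the copies.

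The regulators of the route did not differ in the same way. Srebf1, which encodes the sterol-responsive factor of lipogenesis, stood at 16.7 FPKM in NCD-veh BAT, 15.9 in HFD-veh BAT and 17.4 in HFD-ncls BAT. Mlxipl, which encodes the carbohydrate-responsive factor ChREBP, stood at 39.9, 54.1 and 51.8 FPKM, and Acacb, whose product makes malonyl-CoA at mitochondria, at 93.9, 82.3 and 76.2. All 3 stayed within 1.4-fold between the HFD libraries. Steps that join fatty acids to glycerol were less uniform: 8 of 11 triglyceride assembly genes were lower and 3 higher, with a median log2 ratio of -0.16. Gpd1, which makes glycerol 3-phosphate, stood at 811 FPKM in HFD-veh against 548 in HFD-ncls BAT, while Dgat2, which adds the last fatty acid, stood at 579 and 738. Of 16 cholesterol synthesis genes, 9 were lower and 7 higher, with none past 1.4-fold.

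**Figure D3:**
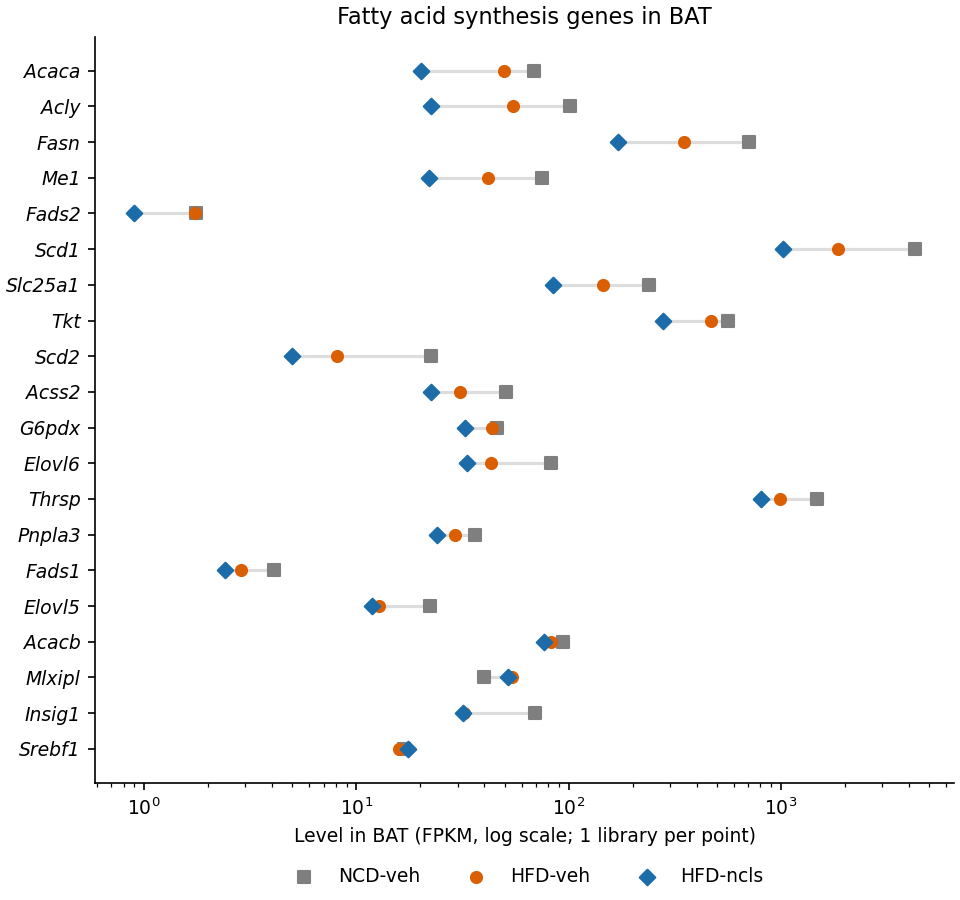
Level in each BAT library (FPKM, log axis) of the 20 fatty acid synthesis genes, ordered by the log2 ratio of HFD-ncls over HFD-veh. Squares are NCD-veh, circles HFD-veh and diamonds HFD-ncls, 1 library each. For Acaca, Acly and Fasn the 3 libraries stand apart, with HFD-ncls lowest and NCD-veh highest, and at the foot of the plot Srebf1 lies between 15.9 and 17.4 FPKM in all 3.

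The same genes stood elsewhere in other organs. In WAT, Acly went from 88.7 FPKM in HFD-veh to 90.2 in HFD-ncls, Acaca from 33.5 to 31.0 and Fasn from 432 to 412. In liver, Fasn was higher in HFD-ncls, at 65.2 and 162 FPKM, and Acly stood at 79.7 and 102. None of the 3 was over 1.4-fold lower in WAT or liver. In muscle, where its level was low, Fasn stood at 4.10 FPKM in HFD-veh against 1.84 in HFD-ncls. From RNA-seq and qRT-PCR in several organs, BAT among them, the paper reports a significant fall of Scd1 and Fasn with ncls in muscle only. The lower BAT levels given here rest on 1 library per group.

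The promoters of Fasn and Acly are shown because the levels of both genes differed together. These are the 250 bases before each RefSeq start site on GRCm38.p6, 5′ to 3′ on the strand of the gene, with each CCAAT (or ATTGG on the other strand), the letters that the factor NF-Y reads, in capitals. The windows are chr11:120824548-120824797 for Fasn and chr11:100528001-100528250 for Acly.
Fasn: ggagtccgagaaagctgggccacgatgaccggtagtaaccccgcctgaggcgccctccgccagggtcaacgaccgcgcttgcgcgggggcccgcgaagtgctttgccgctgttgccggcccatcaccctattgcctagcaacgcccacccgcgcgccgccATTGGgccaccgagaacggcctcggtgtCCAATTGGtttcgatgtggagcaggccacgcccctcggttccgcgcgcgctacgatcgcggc
Acly: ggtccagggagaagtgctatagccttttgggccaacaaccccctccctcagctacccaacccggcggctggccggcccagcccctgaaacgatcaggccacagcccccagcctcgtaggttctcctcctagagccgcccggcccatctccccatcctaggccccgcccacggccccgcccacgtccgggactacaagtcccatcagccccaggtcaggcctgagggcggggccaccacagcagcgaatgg
The Fasn window holds these letters at 3 places, of which 1 pair overlaps, starting 90, 62 and 59 bases before the start site, and the Acly window holds none. The window of Acaca, which differed with them and is not shown, holds none either. That window lies inside the annotated gene, away from its 5′ end, so it says nothing of a promoter there. Of 27025 promoter windows, 34.5% hold them on either strand, as do 36.3% of the 7597 windows of genes compared in BAT. Of the 17 fatty acid synthesis genes with a window, 9 did. The letters TCACNCCAC, a form of the sterol regulatory element, were in neither window shown. They were in 1.04% of all windows, 0.961% of those of genes compared and 1 of the 17. CACGTG, an E-box, was in neither, in 6.05% of all, in 8.63% of those of genes compared and in 3 of the 17.

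Glucose-burning genes were lower by smaller amounts. Of 18 genes for glycolysis and glucose uptake, 15 were lower and 3 higher, with a median log2 ratio of -0.31, and 4 were over 1.4-fold lower (5.38% of all genes). Eno1, enolase 1, was over 2-fold lower, at 55.0 FPKM in NCD-veh BAT, 56.3 in HFD-veh BAT and 26.1 in HFD-ncls BAT, though it has near-identical copies elsewhere in the genome. Lactate dehydrogenase A (Ldha) stood at 215, 168 and 111 FPKM, and pyruvate kinase (Pkm) at 418, 490 and 331. The insulin-responsive glucose carrier Slc2a4 stood at 87.7, 50.7 and 45.8 FPKM, so it was lower in both HFD libraries. Several enzymes of this list are also abundant in muscle, and the muscle fibre sum was 1120 FPKM in HFD-veh against 201 in HFD-ncls BAT.

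Genes of heat production showed no common direction. Of 17 kept genes in the thermogenic and brown identity list, 7 were higher and 10 lower, with a median log2 ratio of -0.08. Adrb3, the adrenergic receptor of adipocytes, stood at 13.4 FPKM in NCD-veh BAT, 51.9 in HFD-veh BAT and 24.5 in HFD-ncls BAT, a log2 ratio of -1.08, so it was highest in HFD-veh. It was one of the WAT-enriched genes, at 67.0 FPKM in HFD-veh WAT. Dio2, the deiodinase that activates thyroid hormone, stood at 1.32, 1.62 and 0.48 FPKM, a log2 ratio of -1.56. Lhx8, a homeobox gene of brown fat, stood at 0.63, 0.58 and 1.53 FPKM, a log2 ratio of 1.27. Dio2 was lowest and Lhx8 highest in HFD-ncls BAT, both at low levels. Coactivator Ppargc1a stood at 3.23, 2.42 and 2.83 FPKM, Prdm16, a transcription regulator of brown fate, at 1.16, 1.88 and 1.78, and the fatty acid elongase Elovl3 at 18.6, 7.39 and 6.52. In HFD-ncls these genes were within 1.4-fold of HFD-veh.

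Mitochondrial genes moved little. Of 76 respiratory chain genes, 63 were higher and 13 lower, with a median log2 ratio of 0.08, and none was over 1.4-fold higher. The exception in size was Atp5g1, a subunit of the ATP synthase, at 10.96 FPKM in HFD-veh against 5.63 in HFD-ncls BAT. Of 75 mitochondrial ribosomal protein genes, a family chosen by symbol after values were seen, 63 were higher and 12 lower, with a median of 0.11. Fatty acid oxidation was split, with 11 of 21 genes higher and 10 lower and a median of 0.02. Hadha, a subunit of the trifunctional protein, stood at 376 and 320 FPKM and Eci1, an enoyl-CoA isomerase, at 360 and 467. Of 16 genes for breakdown of branched-chain amino acids, 14 were higher and 2 lower, with a median of 0.16 and none past 1.4-fold. Bcat2, the mitochondrial transaminase of this route, stood at 38.3 and 47.6 FPKM. Genes for subunits of AMP-activated protein kinase and its activating kinase were within 1.4-fold. Of 6 kept, 5 were higher, with Prkag2 at 41.5 and 58.0 FPKM, and Prkaa2 was lower, at 1.24 and 0.95. The subunit gene Prkab2, left out as muscle-enriched, was also lower, at 1.47 and 1.28 FPKM.

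A secreted protein of adipocytes and a lipid droplet protein were over 2-fold higher in HFD-ncls BAT. Cfd, which encodes adipsin, a complement protease secreted by adipocytes, stood at 821 FPKM in NCD-veh BAT, 404 in HFD-veh BAT and 853 in HFD-ncls BAT, a log2 ratio of 1.08. In WAT it stood at 653 FPKM in HFD-veh against 753 in HFD-ncls. Hilpda, an inhibitor of the lipase Pnpla2, stood at 9.74, 6.42 and 16.0 FPKM in BAT, a log2 ratio of 1.30. HFD-veh BAT thus had the lowest level of both genes, an order that their choice by a ratio to that library favours. The other genes of lipolysis and lipid droplets were nearer to even, with 7 of 14 higher and 7 lower in the list as a whole. Pnpla2 itself stood at 1101, 879 and 931 FPKM, and the droplet protein Plin2 at 122, 197 and 146. The paper reports that ncls raised the mRNA of Pnpla2, there named Atgl, in BAT. Other secreted proteins stood closer between the HFD libraries. Adiponectin (Adipoq) stood at 349.7 and 410 FPKM, resistin (Retn) at 17.4 and 18.0, and Vegfa, the vessel growth factor, at 101 and 124. Il6 was listed at 0 and Tnf at under 0.001 FPKM in all 3 BAT libraries.

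The gene with the largest ratio among those above 0.001 FPKM in both HFD libraries, apart from Pisd-ps1, was Cyp1a1. It encodes a cytochrome P450 that oxidizes aromatic compounds and is a target of the aryl hydrocarbon receptor. Cyp1a1 stood at 3.36 FPKM in NCD-veh BAT, 0.72 in HFD-veh BAT and 27.5 in HFD-ncls BAT, a log2 ratio of 5.07, and so was far higher in HFD-ncls than in the 2 other BAT libraries. In liver it stood at 2.92 FPKM in HFD-veh against 2.29 in HFD-ncls. Among other genes tied to the receptor, Tiparp stood at 7.36 and 8.89 FPKM in HFD-veh and HFD-ncls BAT, Cyp1b1 at 1.26 and 0.85, and Nqo1 at 0.95 and 0.95. In the AhR and xenobiotic list, 6 of 8 genes were higher and 2 lower, with a median of 0.29, and 3 were over 1.4-fold higher (2.25% of all genes) and 1, Cyp1b1, lower (5.38%). Besides Cyp1a1, the 3 were Cyp2e1, a further cytochrome P450, at 16.3 and 25.2 FPKM, and the carboxylesterase Ces1f, at 17.5 and 25.8. On mm9, Cyp1a1 spans 57545420 to 57551629 of chromosome 9 on the plus strand. Its 250 bases before the RefSeq start on GRCm38.p6, chr9:57697363-57697612, are shown with GCGTG, the core letters that the receptor reads, in capitals on either strand.
Cyp1a1: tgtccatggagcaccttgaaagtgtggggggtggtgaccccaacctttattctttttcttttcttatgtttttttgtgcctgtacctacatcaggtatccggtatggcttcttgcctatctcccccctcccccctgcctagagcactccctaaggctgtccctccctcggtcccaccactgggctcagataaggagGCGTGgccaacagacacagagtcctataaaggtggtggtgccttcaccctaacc
The letters occur at 1 place, starting 54 bases before the start site, and 28.2% of the 27025 windows hold them, as do 47.4% of the 7597 windows of genes compared in BAT. Whether the receptor binds at this place was not tested, and bases farther upstream were not searched.

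Several of the other higher genes were listed near 0 in some libraries. Rpl22 and Rpl26, ribosomal protein genes with many processed copies, stood at 16.9 and 5.43 FPKM in HFD-ncls BAT and under 0.001 in the other BAT libraries. Pisd-ps1, a pseudogene, stood at 0.03, 0.04 and 8.31 FPKM, and Zbtb24, a zinc finger gene, at 0.04, 0.04 and 1.83. The other 76 ribosomal protein genes were within 1.4-fold. Beta-s, a beta-globin entry, stood at 21.2, 8.23 and 23.9 FPKM while the neighbouring adult beta-globin Hbb-b1 stood at 447, 326 and 268. Lgals6, a near copy of Lgals4, stood at 1.06, 1.01 and 3.90 FPKM, and Lgals4 at 33.5, 55.1 and 58.1. Reads of such copies may have been divided between them. Bik, a promoter of apoptosis, stood at 2.75, 2.13 and 6.10 FPKM, and H2-Q8, a class I histocompatibility gene, at 7.42, 5.40 and 12.3. The neutrophil gene S100a8 stood at 2.79, 0.39 and 2.34 FPKM, and its partner S100a9 at 2.96, 2.58 and 2.97. For Bik, H2-Q8 and S100a8, HFD-veh BAT was the lowest of the 3. The non-coding gene 4933426D04Rik stood at 7.94, 4.75 and 9.98 FPKM. The remaining 12 higher genes, Dusp15, Fam71f2, 2010109A12Rik, Hpd, Insl6, Fam131c, Tmem216, 6330418K02Rik, Syt12, AY074887, Osr2 and Gnrh1, stood at 1.13 to 3.79 FPKM in HFD-ncls BAT.

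Macrophage genes were lower in HFD-ncls BAT. Of the 17 in the list, 11 reached 1 FPKM in either HFD library, and 10 of these were lower and 1 was higher. Among the 11, 5 were over 2-fold lower (0.923% of all genes) and the median log2 ratio was -0.72. The 5 were Ccl2, Cd68, Gpnmb, Ctss and Mpeg1. Ccl2, which calls monocytes into tissue, stood at 0.17 FPKM in NCD-veh BAT, 6.14 in HFD-veh BAT and 1.401 in HFD-ncls BAT, a log2 ratio of -2.06. Cd68, a lysosomal protein of macrophages, stood at 3.62, 9.15 and 2.60 FPKM, and Ctss, a lysosomal protease, at 3.98, 10.2 and 4.04. The lysozyme gene Lyz2 was the most abundant of the list, at 30.8, 40.2 and 27.5 FPKM. HFD-veh was the highest library for all 4, and for Cd68, Ctss and Lyz2 the 2 others lay close together. Csf1r, the receptor for the macrophage growth factor, stood at 3.32, 3.30 and 2.60 FPKM. Adgre1, which encodes F4/80 and is listed as Emr1, stood at 0.72, 1.16 and 0.66 FPKM. Adgre1 passed the level of 1 FPKM through HFD-veh BAT alone, as did Gpnmb, at 2.22 against 0.59. Genes that pass in this way can only count as lower, which favours the lower side of the count. With no filter on level, the median of the list was -0.61. Cd14 was the 1 gene that was higher, at 2.66 FPKM in HFD-veh against 3.91 in HFD-ncls BAT. All but Csf1r of the 11 were WAT-enriched. In WAT, Cd68 stood at 198 FPKM in HFD-veh against 222 in HFD-ncls, and Ctss at 177 and 224.

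Lgals3, which encodes galectin-3, a secreted lectin of macrophages and other cells, stood at 2.68 FPKM in NCD-veh BAT, 20.8 in HFD-veh BAT and 2.68 in HFD-ncls BAT. Its log2 ratio of -2.91 was the lowest outside muscle genes among genes of at least 5 FPKM, apart from Gm13363. In WAT it stood at 288 and 338 FPKM. The actin-capping gene Capg stood at 1.98, 8.14 and 2.92 FPKM in BAT, Gp49a, an immunoglobulin-like receptor gene, at 1.15, 5.04 and 1.80, and its near copy Lilrb4 at 1.56, 5.93 and 2.23. Like Lgals3, these were high in HFD-veh BAT only. Further genes of white blood cells among the 94 were Trem2, C5ar1, Alox5ap, Adam8, Cd84, Cd44, Slamf9, Lcp1, Ear2 and H2-DMb2, with HFD-veh levels between 1.08 and 5.52 FPKM. They were picked from genes already called lower, so their direction adds no separate result. Between the HFD libraries, all but Alox5ap and Lcp1 reached 1 FPKM in HFD-veh only. The listed lymphocyte genes were all under 1 FPKM in both HFD libraries and so were not compared, and their sum was 3.28 FPKM in NCD-veh BAT, 3.26 in HFD-veh BAT and 4.05 in HFD-ncls BAT.

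Chemokine ligands were split. This family was chosen by symbol after values were seen. Of 17 CC and CXC ligands compared, 11 were lower and 6 higher, 5 were over 2-fold lower (0.923% of all genes) and the median log2 ratio was -0.18. The 5 were Ccl2, Ccl6, Ccl7, Ccl9 and Cxcl1. Ccl6 stood at 3.84, 9.92 and 2.23 FPKM in BAT, in the same order of libraries, Ccl7 at 0.24, 3.51 and 0.92, and Cxcl1, a signal to neutrophils, at 0.09, 2.21 and 0.98. Cxcl9, an interferon target that draws T cells, was higher, at 9.13, 9.71 and 14.9 FPKM. Of the 5, only Ccl2 was also over 2-fold lower in WAT, at 49.3 and 22.8 FPKM, and Ccl7 stood at 28.9 and 15.9 there.

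**Figure D4:**
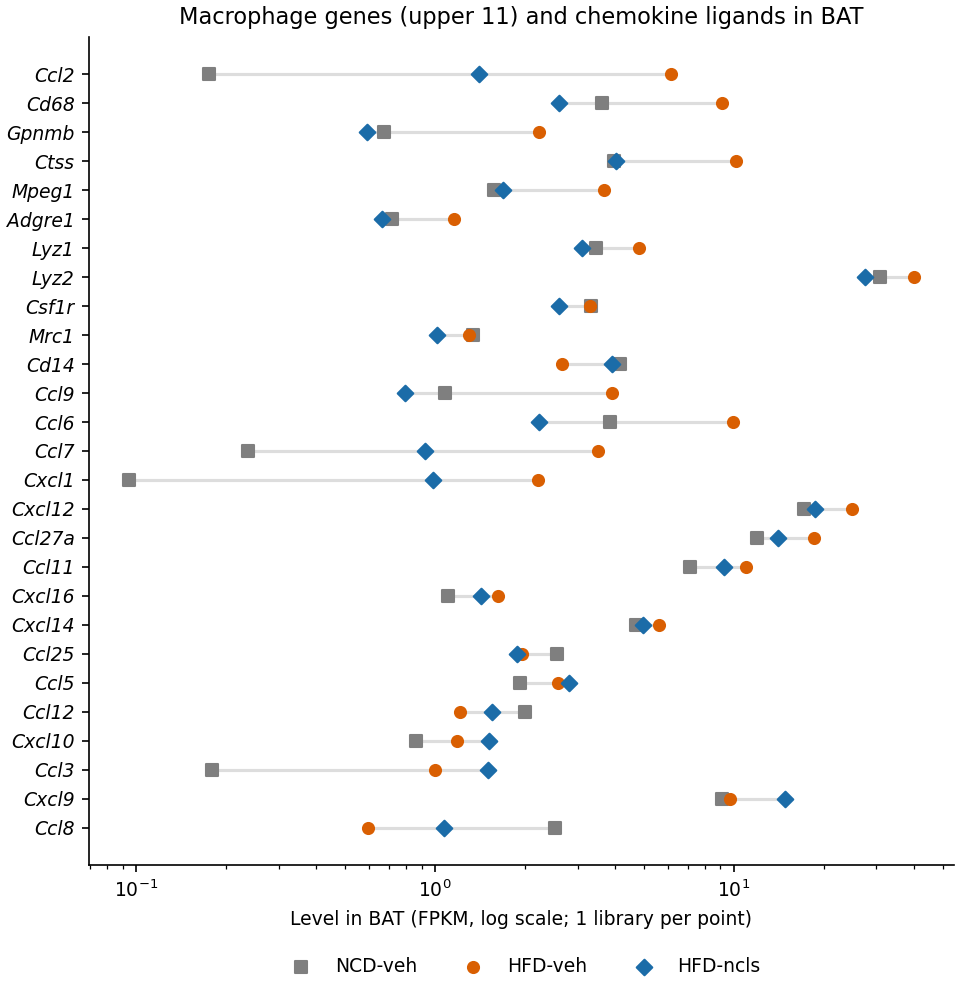
Level in each BAT library (FPKM, log axis) of the 11 macrophage genes compared, above, and of the other 16 chemokine ligands, below, each ordered by log2 ratio. Squares are NCD-veh, circles HFD-veh and diamonds HFD-ncls, 1 library each. HFD-veh is the highest library for Ccl2, Cd68, Gpnmb, Ctss, Ccl9, Ccl6, Ccl7 and Cxcl1.

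Interferon-stimulated genes lay on the other side. Of 14, 11 were higher and 3 lower, with a median log2 ratio of 0.30, 4 were over 1.4-fold higher (2.25% of all genes) and none passed 2-fold. Rtp4 stood at 4.198 FPKM in NCD-veh BAT, 4.57 in HFD-veh BAT and 6.75 in HFD-ncls BAT, and Gbp3, a guanylate-binding protein gene, at 6.398, 6.56 and 9.74. Ifit1 stood at 2.80, 2.62 and 3.75 FPKM, so that HFD-ncls was the highest library for all 3. Of 7 genes of class II antigen presentation, 4 were lower and 3 higher. Cd74, the invariant chain, stood at 88.8 and 90.8 FPKM, and H2-DMb2 was over 2-fold lower, at 1.38 and 0.60.

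Genes of the extracellular matrix list were lower in HFD-ncls BAT. All 20 were lower, 13 of them over 1.4-fold (5.38% of all genes) and none over 2-fold, with a median log2 ratio of -0.64, and 14 of the 20 were WAT-enriched. Col3a1, a fibrillar collagen of connective tissue, stood at 22.7 FPKM in NCD-veh BAT, 26.8 in HFD-veh BAT and 16.7 in HFD-ncls BAT. Col6a2, of the type VI collagen around adipocytes, stood at 9.96, 13.0 and 7.30 FPKM, and Col1a1 at 14.3, 12.7 and 7.88. HFD-ncls was the lowest library for all 3. Decorin (Dcn) differed least, at 52.5 and 51.2 FPKM. Over the 16 collagen genes compared, a family chosen by symbol after values were seen, 13 were lower and 3 higher. Of these, Col18a1 was over 2-fold lower, at 2.28 and 1.06 FPKM, and Col27a1 was over 1.4-fold higher, at 11.6 and 16.8 FPKM. Pcolce, outside the list, which helps to process collagen, was over 2-fold lower, at 13.0, 41.5 and 20.2 FPKM. Endothelial genes were lower by less, with 9 of 10 lower and a median of -0.18, and the sum of the 10 was 208, 296 and 269 FPKM.

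Immediate-early genes, which cells switch on within minutes of a stimulus, were lower in HFD-ncls BAT. Of 23, 22 were lower and 1 was higher, 7 were over 1.4-fold lower (5.38% of all genes) and the median log2 ratio was -0.29. Klf4, a zinc finger factor, was over 2-fold lower, at 5.05, 21.7 and 9.15 FPKM in the same order of libraries. Its relative Klf2 stood at 19.9, 42.8 and 21.9 FPKM, and Dusp1, a phosphatase of MAP kinases, at 10.2, 39.1 and 22.7. Fos stood at 1.80, 44.2 and 29.4 FPKM and Egr1 at 5.65, 47.8 and 34.5. Both HFD libraries thus had far more Fos and Egr1 than the chow library. Of 13 heat shock genes, 12 were lower, with a median of -0.30. The small heat shock gene Hspb1 stood at 65.8, 122 and 76.0 FPKM. Cryab, its relative, was over 2-fold lower, at 42.6, 26.6 and 8.93 FPKM, and is also abundant in muscle, at 394 FPKM in HFD-veh muscle. Of 11 glucocorticoid-responsive genes, 8 were lower and 3 higher. The kinase Sgk1 was over 2-fold lower, at 21.3, 39.2 and 19.0 FPKM, as was Lcn2, an iron-binding secreted protein, at 0.38, 1.58 and 0.40, while Fkbp5 stood at 8.29, 2.87 and 2.19.

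**Figure D5:**
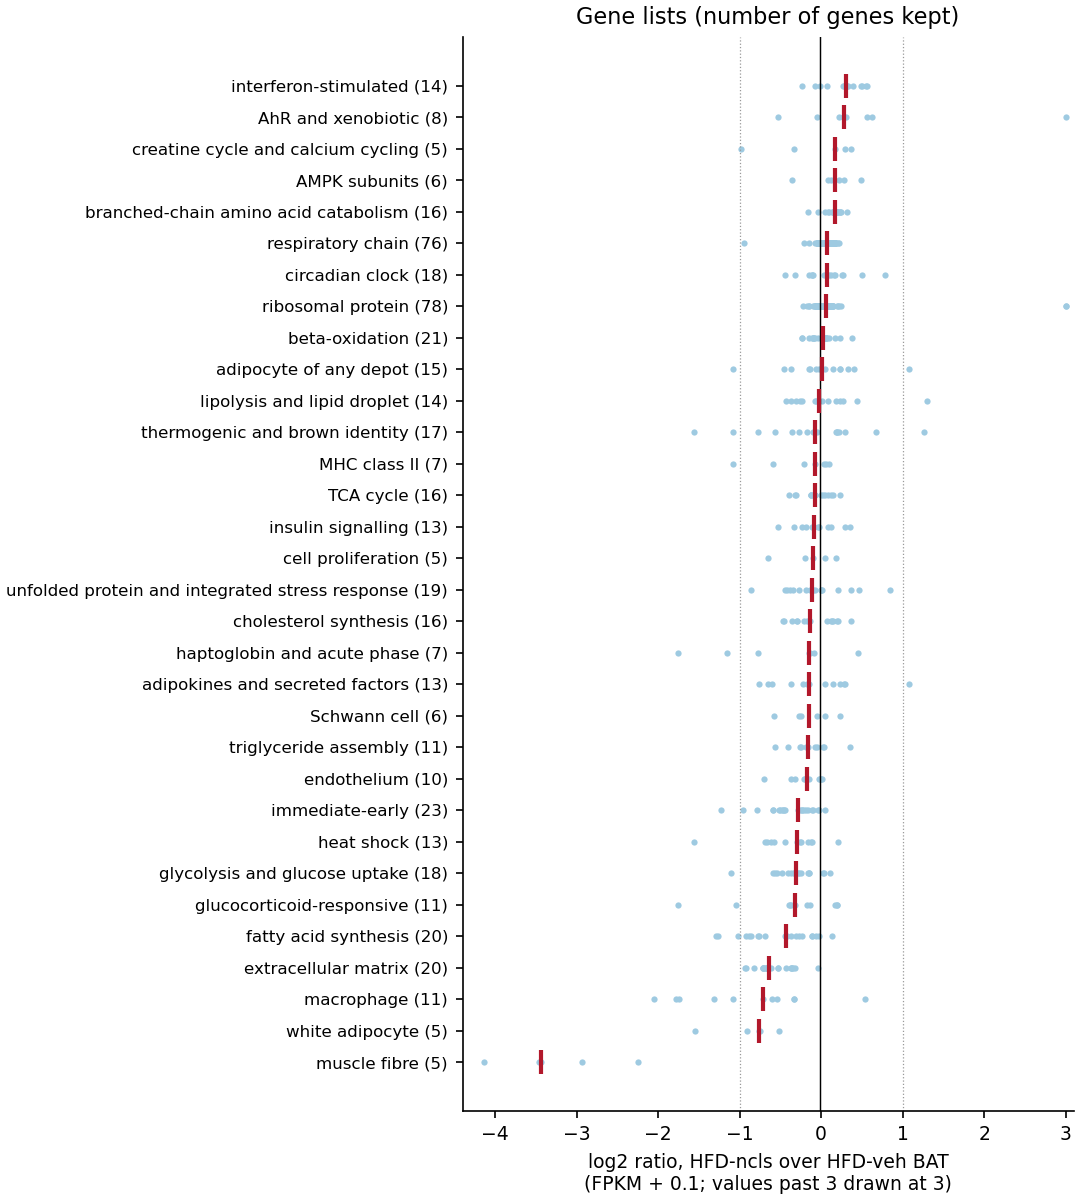
Log2 ratio of HFD-ncls over HFD-veh BAT (horizontal) for each gene kept (points) in the lists with at least 5 genes kept, with the list median as a red bar, the number of genes in brackets, the median of all genes as the solid line and 2-fold as dotted lines. Medians run from -3.44 for muscle fibre genes, through -0.76 for white adipocyte, -0.72 for macrophage, -0.64 for matrix and -0.43 for fatty acid synthesis genes, to 0.30 for interferon-stimulated genes.

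A further set of genes among the 94 stood highest in HFD-veh BAT, an order that their choice by a ratio to that library favours. Tmem45b, a membrane protein gene, stood at 74.6 FPKM in NCD-veh BAT, 158 in HFD-veh BAT and 72.8 in HFD-ncls BAT. Sncg, which encodes gamma-synuclein, an abundant protein of white adipocytes, stood at 12.7, 43.9 and 21.0 FPKM. The retinol-binding gene Rbp7 stood at 5.93, 22.1 and 8.65 FPKM. All 3 are WAT-enriched. Calcium-binding proteins of the S100 family were split by member: S100a4 stood at 5.34, 13.5 and 5.22 FPKM and S100a6 at 19.1, 43.9 and 19.3, while S100a1 stood at 568, 575 and 613. Pnldc1, a ribonuclease gene, stood at 3.23, 13.8 and 6.57 FPKM, and Tbx3, a T-box factor, at 2.71, 5.96 and 2.16. The adaptor gene Stap2 stood at 4.73, 6.00 and 0.99 FPKM, and Fhl1, a LIM protein of muscle and other tissues, at 76.7, 42.3 and 16.7, so Fhl1 was highest on chow. Gm13363, a pseudogene, was listed at 6.44, 7.62 and 0.03 FPKM and Snhg9, a host gene of a small nucleolar RNA, at 0.00, 7.14 and 1.79.

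Few of the genes that differed in BAT differed by 2-fold in the same direction elsewhere. Of the 94 lower genes, 79 were compared in WAT, where 1, Ccl2, was over 2-fold lower (1.27%, against 0.214% of all WAT genes) and 3 were over 2-fold higher (3.80%, against 1.49%). In liver, 54 were compared, and Gm13363, Myh4, Pnldc1 and Snhg9 were over 2-fold lower (7.41%, against 1.31%) and 3 higher (5.56%, against 1.0%). In muscle, 54 were compared, and 7 were over 2-fold lower (13.0%, against 2.53%) and 5 higher (9.26%, against 1.27%). The 7 were Ccl7, Farsb, Fasn, Itih4, Serpina3n, Sgk1 and Tmem45b, and the 5 were the slow-fibre genes Tnni1, Myl2, Myl3 and Tnnc1, with Csrp3. Shares past 2-fold were thus above those of all genes in both directions, in each of the other organs. The median log2 ratio of the 94 genes was 0.02 in WAT, 0.04 in liver and 0.01 in muscle. Of the 26 higher genes, 15 were compared in WAT, where Hpd and Rpl26 were over 2-fold higher (13.3%, against 1.49%) and Beta-s and Zbtb24 lower (13.3%, against 0.214%). In liver, among 14 compared, H2-Q8, Lgals6, Pisd-ps1 and S100a8 were over 2-fold higher (28.6%, against 1.0%) and Beta-s and Rpl26 lower (14.3%, against 1.31%). In muscle, among 8 compared, H2-Q8 and Zbtb24 were over 2-fold higher (25%, against 1.27%) and Hpd and Pisd-ps1 lower (25%, against 2.53%). Some genes abundant in liver or WAT were highest in HFD-veh muscle. Hpd stood at 10.5 FPKM there, against 0.03 in chow muscle and 0 in muscle of ncls-treated mice. In this order, Itih4 stood at 3.41, 0.03 and 0.01 FPKM, and Lep at 5.04, 0.13 and 1.60. Not all such genes did so, since Cfd stood at 33.4, 76.7 and 43.9 FPKM. The part of liver or WAT RNA in the muscle differences was not tested. Whether the organs came from the same mice is not given in the sources used here.

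Markers of other tissues stood as follows in the 3 BAT libraries. The sum over the macrophage list was 55.8 FPKM in NCD-veh BAT, 87.3 in HFD-veh BAT and 50.6 in HFD-ncls BAT, against a median of 1412 in WAT. The white adipocyte list summed to 8.20, 36.3 and 20.8 FPKM, against 2285 in WAT. Blood genes summed to 461, 338 and 278 FPKM and hepatocyte genes to 21.1, 11.5 and 10.7. Schwann cell genes summed to 47.7, 32.1 and 27.9 FPKM and mesothelial genes to 1.48, 0.70 and 0.73. White adipocyte and macrophage sums were therefore highest in HFD-veh BAT, and blood and Schwann cell sums highest in NCD-veh BAT.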

How the data were processed

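The series holds 12 RNA-seq libraries, 1 for each group (NCD-veh, HFD-veh, HFD-ncls) of each organ (BAT, WAT, liver, quadriceps muscle). Per the labels and methods, reads were aligned with TopHat to mm9, and the authors deposited FPKM values per RefSeq gene symbol from Cufflinks. No counts were used. The Cufflinks version and any scaling between libraries are not given in the sources used here. Samples were grouped by their labels. FPKM is relative to the library, so a large RNA source in one library lowers all other values there.

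BAT libraries were compared as log2 ratios of HFD-ncls over HFD-veh with 0.1 FPKM added, for genes of at least 1 FPKM in either and with the muscle-enriched genes left out. With 1 library per group, no test, error or interval was computed. Genes past 2-fold were counted, and 36 gene lists were described by counts and medians beside those of all genes. The named genes were the genes of at least 5 FPKM in either HFD library and over 2-fold higher (up to 15), the 15 lowest, the genes of a list past 2-fold, defining genes of each list and 5 genes on each side of the threshold. Others, gene families included, were chosen after values were seen. The genes compared, the lists and the rules were chosen with earlier results of these data known. Gene positions are from GENCODE on mm9 and promoters from RefSeq on GRCm38.p6. The calling functions were tested on simulated data. Scripts ran in Python 3.11.15 (pandas 2.3.3, numpy 2.4.6, matplotlib 3.10.9).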

Additional observations from a re-analysis of the deposited data

Results flagged for a closer look

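Some genes past 2-fold in BAT were past 2-fold in the opposite direction in another organ, a difference that was not tested with 1 library per group. In WAT these were Zbtb24 (log2 ratio of HFD-ncls over HFD-veh -4.02), Beta-s (-6.11), Casp9 (1.24), Itih4 (1.09) and Lcn2 (1.03). In liver these were Rpl26 (-4.44), Beta-s (-6.27), Fasn (1.31), Mmp23 (1.97) and S100a6 (1.66). In muscle these were Pisd-ps1 (-4.80), Hpd (-6.72), Tnnc1 (3.91), Csrp3 (1.57), Myl2 (4.28), Myl3 (3.42) and Tnni1 (3.63). Among these 17 values, those of Zbtb24, Beta-s, Rpl26, Pisd-ps1, Hpd and Tnni1 set a library listed near 0 against one that was not. Fasn stood at 65.2 FPKM in HFD-veh against 162 in HFD-ncls liver.

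The muscle-enriched genes that the comparison leaves out were present in BAT. Their median level in HFD-veh BAT was 1.25% of that in HFD-veh muscle, against 2.67% in NCD-veh BAT and 0.373% in HFD-ncls BAT.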

How the results depend on the processing

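Counts of genes over 2-fold depended on how low values were treated. With a pseudocount of 1, 12 genes were higher and 44 lower, with a filter of 5 FPKM 10 and 37, and with no filter 165 and 296. With the muscle-enriched genes kept, 176 were lower, and with WAT-enriched genes also left out, an alternative chosen after seeing the data, 56 were lower. The other alternatives gave counts within 1.5-fold of 26 and 94. They were a pseudocount of 0.01, division by the median ratio, the other muscle rules, subtraction of 0.691% of the muscle level from HFD-veh BAT, and removal of genes under 0.001 FPKM, also added after seeing the data. Of 131 medians recomputed for 12 lists, 130 stayed within 1.5-fold of the value given, and the macrophage median with a filter of 5 FPKM was -1.55. Most of these lists differed by less than 1.5-fold, so the limit allows a small median to change sign. The lipolysis and lipid droplet median did so, running from -0.07 to 0.01. No macrophage median was computed with WAT-enriched genes left out, where only Csf1r of the 11 genes compared is left. The fatty acid synthesis median ran from -0.44 to -0.41, the matrix median from -0.65 to -0.45 and the interferon median from 0.23 to 0.32. No paired analysis was possible because each group has 1 library. Low genes rest on few fragments, and depth was known only as a ratio.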
